A study of Homo sapiens with 2 samples.

Results

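Keratins are the intermediate filament proteins of epithelial cells. Their filaments form from pairs of an acidic type I chain and a basic type II chain, so a cell that builds keratin filaments needs members of both types. Simple epithelia use KRT8 with KRT18, with KRT7 and KRT19 added in ducts and glands, while the hair keratins, among them KRT34, KRT81 and KRT86, harden the hair shaft. Glial cells and the tumours derived from them are better known for other intermediate filaments, vimentin and GFAP.

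The 10 keratins described here are KRT7, KRT8, KRT18, KRT19, KRT34, KRT75, KRT79, KRT80, KRT81 and KRT86. They are 10 of 41582 genes measured and 10 of 55 keratin genes in the table. They were chosen by gene identity, as simple epithelial keratins, hair keratins and the epithelial and hair follicle keratins KRT75, KRT79 and KRT80, and by their summed TPM in both libraries, which was already known. Their differences between the libraries are therefore a description, and no test is given for them.

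RNA was sequenced from U87, an established human glioblastoma cell line with the genotype labelled WT. One culture received CCA-1.1, a curcumin analog, for 72 h, and the other received its solvent DMSO for the same time. Each condition is represented by 1 library, so differences have no replicate check and p-values are not given. The dose of CCA-1.1 in the sequenced culture is not given in the sources used here. Values are in TPM, a unit that divides reads by transcript length and then by the library's sum of such values. Each value is thus a share of its library. Levels can be set side by side between genes while the read depth stays unknown. A difference is log2((CCA-1.1 TPM + 1) / (DMSO TPM + 1)), which understates the change of genes at low TPM, and 2-fold on this scale is a difference above 1 or below -1. In bulk RNA, fewer cells that express a gene and less of its RNA per cell cannot be told apart.

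U87 cells carried the RNA of 9 of the 10 keratins in both libraries, over a range from near 0 to more than 100 TPM. KRT80 was the highest of them, and its level did not move between the libraries. KRT75 was the single keratin of the 10 past 2-fold, and it was higher in CCA-1.1 treated cells. Among all genes, 0.815% were higher by more than 2-fold and 0.714% were lower. KRT34 and KRT79 were also higher in the CCA-1.1 library, by less than 2-fold, and KRT7 and KRT86 were lower.

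**Figure D1:**
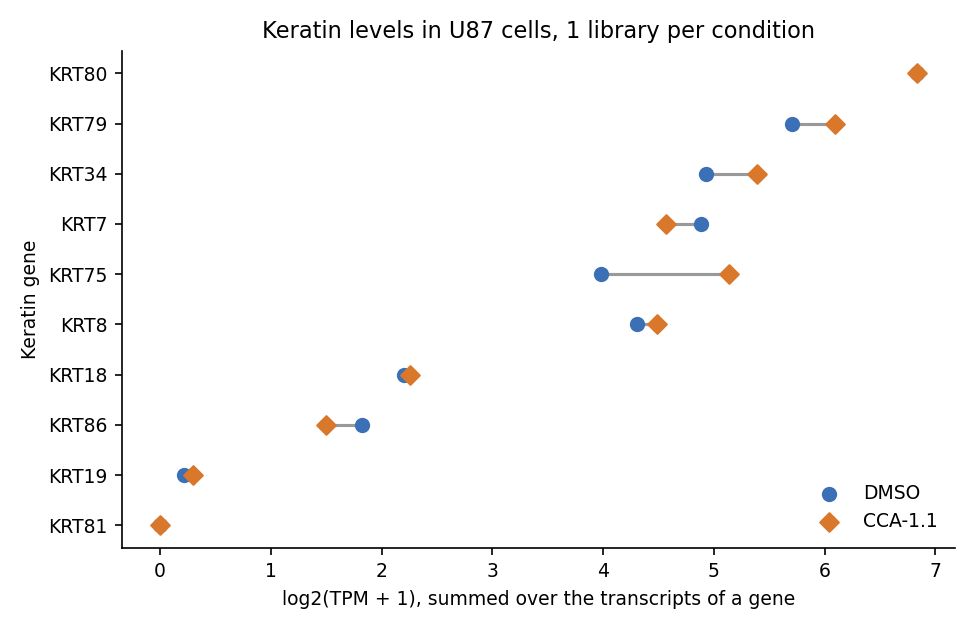
Level of each of the 10 keratins as log2(TPM + 1) on the x axis, with a blue circle for the DMSO library, an orange diamond for the CCA-1.1 library and a grey line between them. Genes are ordered by mean TPM. The widest gap is that of KRT75, from 14.77 to 34.18 TPM, and the symbols of KRT80 and of KRT81 lie on each other.

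KRT75 is the type II keratin of the companion layer around the growing hair. It was at 14.77 TPM under DMSO and 34.18 TPM under CCA-1.1, a ratio of 2.31 and a difference of 1.16. That difference ranked 2nd from the top among the 7906 protein-coding genes averaging 10 TPM or more. All of its signal came from 1 transcript, NM_004693.3, so no division of reads between transcripts of the gene lay behind it. Of the TPM of all 10 keratins, KRT75 held 5.63% under DMSO and 11.2% under CCA-1.1.

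KRT79, a type II keratin of the upper hair follicle canal and the sebaceous duct, was the second highest of the 10. It was at 51.36 TPM under DMSO and 67.22 TPM under CCA-1.1, a difference of 0.38. The ratio of KRT75 to KRT79 was 0.288 with DMSO and 0.508 with CCA-1.1, so the gap between these related genes was narrower in the treated cells. KRT34, a type I hair keratin, was at 29.42 TPM under DMSO and 40.86 TPM under CCA-1.1, a difference of 0.46. For genes of a similar level, the 4306 protein-coding genes with a mean from 20 to 100 TPM, the 5th to 95th percentiles of the difference ran from -0.27 to 0.27. KRT75, KRT79 and KRT34 all lay above that range, and KRT75 and KRT34 also lay above the 99th percentile of 0.45.

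The sequence before the RefSeq start of these 3 keratins is shown because they had the largest differences toward CCA-1.1 among the 10. Each line gives the last 100 bases before the start, 5′ to 3′ on the strand of the gene (GRCh38.p14, minus strand in each case), from chr12:52434372-52434471 for KRT75, chr12:52834312-52834411 for KRT79 and chr17:41382307-41382406 for KRT34. Capitals mark ATAAAA, a sequence of the TATA box kind, at which the general transcription machinery can position the start.
KRT75: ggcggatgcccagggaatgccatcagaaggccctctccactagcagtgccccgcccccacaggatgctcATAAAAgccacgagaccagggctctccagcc
KRT79: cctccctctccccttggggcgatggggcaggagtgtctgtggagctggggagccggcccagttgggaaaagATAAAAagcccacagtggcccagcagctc
KRT34: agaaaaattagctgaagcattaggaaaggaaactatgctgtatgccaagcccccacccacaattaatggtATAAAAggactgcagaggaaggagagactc

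The first base of ATAAAA lay at position -31 in KRT75, -29 in KRT79 and -30 in KRT34, counted back from the base before the start as -1. On the gene's own strand and within the last 50 bases, 2.26% of the 35116 RefSeq promoters of this length hold ATAAAA. The motif was picked after these sequences had been read. In KRT34 it overlaps TATAAA, which was found in neither KRT75 nor KRT79. Of 5 motifs searched on both strands of the last 250 bases, TATAAA was in 10.7% of all promoters, ATAAAA in 14.8%, the GC box GGGCGG in 42.6%, CCAAT in 32.0% and the AP-1 motif TGANTCA in 6.57%. KRT75 also held GGGCGG on the opposite strand. Neither CCAAT nor TGANTCA was found in KRT75, KRT79, KRT34 or KRT8, the 4 of the 10 keratins with an entry, and KRT8 held none of the 5 motifs. A match of letters is a description and shows no use of a site.

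KRT80 is a type II keratin found in many epithelia. It was at 112.98 TPM under DMSO and 113.09 TPM under CCA-1.1, a difference of 0.0014, and its mean was above that of 93.3% of protein-coding genes. It alone held 43.1% of the TPM of the 10 keratins under DMSO and 37.04% under CCA-1.1. Its share was lower in treated cells while its own level stayed in place. KRT80 was made up of 3 transcripts. NM_001081492.2 was at 60.83 TPM under DMSO and 58.05 TPM under CCA-1.1, and NM_182507.3 was at 44.35 TPM and 44.48 TPM. The predicted transcript XM_005268676.4 was at 7.80 TPM and 10.56 TPM, a difference of 0.39 in the smallest part of the gene.

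The simple epithelial keratins were at lower levels and did not move together. KRT7, a type II keratin of glands and ducts, was at 28.56 TPM under DMSO and 22.67 TPM under CCA-1.1, a difference of -0.32, which is below the 5th percentile of genes of its level. KRT8, the first type II keratin of the embryo, was at 18.80 TPM and 21.42 TPM, a difference of 0.18, which is within the same range from -0.27 to 0.27. KRT7 was thus 1.52 times KRT8 with DMSO and 1.06 times with CCA-1.1.

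The type I partners of these genes were scarce. KRT18, the usual partner of KRT8, was at 3.60 TPM under DMSO and 3.79 TPM under CCA-1.1, a difference of 0.06. KRT19, a short type I keratin that lacks most of the tail domain, was at 0.16 TPM and 0.23 TPM, where the smallest value above 0 in the table is 0.01 TPM. The ratio of KRT8 to KRT18 RNA, over all transcripts of each gene, was 5.22 with DMSO and 5.65 with CCA-1.1. Part of that KRT8 RNA was the non-coding NR_045962.2, at 8.83 TPM under DMSO and 7.96 TPM under CCA-1.1. The coding KRT8 transcript, at 9.97 TPM and 13.46 TPM, was above KRT18 in both libraries, by less than these ratios. Summed, the 4 simple epithelial keratins were at 51.1 TPM under DMSO and 48.1 TPM under CCA-1.1.

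The transcripts behind KRT7 and KRT8 were not all curated coding ones. The curated KRT7 transcript NM_005556.4 was listed at 0 in both libraries, and 3 predicted transcripts carried the gene. XM_017019294.2 held 79.2% of KRT7 in DMSO and 78.9% in CCA-1.1, and XM_047428827.1 held 18.9% and 19.1%. The transcripts of KRT7 thus kept their shares while the gene as a whole was lower in the treated cells. In KRT8, the coding transcript NM_002273.4 was at 9.97 TPM under DMSO and 13.46 TPM under CCA-1.1, and the non-coding transcript NR_045962.2 was at 8.83 TPM and 7.96 TPM. The coding transcript held 53.0% of the gene in DMSO and 62.8% in CCA-1.1, and its own difference of 0.40 was larger than that of the gene. KRT18 came from NM_000224.3 alone, with NM_199187.2 listed at 0 in both libraries.

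The hair keratins other than KRT34 were near the floor. KRT86 was at 2.53 TPM under DMSO and 1.82 TPM under CCA-1.1, a difference of -0.32, which is within the 5th to 95th percentiles of -0.39 and 0.47 of the 2398 genes with a mean from 1 to 5 TPM. Within it, NM_001320198.2 was at 2.13 TPM and 1.25 TPM, and XM_005268866.5 was at 0.40 TPM and 0.57 TPM. KRT81, its near relative in the hair cortex, was listed at 0 in both libraries, for which no fold change is given. In KRT34, both transcripts were higher in the CCA-1.1 library. NM_001386014.1 was at 22.47 TPM and 28.35 TPM, and the predicted XM_011524793.3 was at 6.95 TPM and 12.51 TPM. The predicted transcript held 23.6% of KRT34 in DMSO and 30.6% in CCA-1.1.

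Keratin genes resemble each other and have many pseudogene copies, so reads can match several of them, and Kallisto divides such reads by estimation. Of the 31-base words in the longest GENCODE transcript of each gene, taken on either strand, 53.2% in KRT81 and 51.9% in KRT86 also occur in transcripts of other genes, and KRT81 shares 43.2% of its words with KRT86 alone. The values of KRT81 and KRT86 are therefore uncertain in relation to each other. KRT18 shares 49.9% of its words, the largest parts with its pseudogene KRT18P11 and with KRT8. KRT8 shares 35.6%, the largest part with its pseudogene KRT8P3. Neither KRT18P11 nor KRT8P3 has a matched value here, so any reads from them may be counted in KRT18 or KRT8. KRT34 shares 23.4%, of which KRT33B, KRT31 and KRT33A hold the largest parts. For KRT7 the share was 15.5%, for KRT75 12.1%, for KRT19 11.4%, for KRT79 3.25% and for KRT80 1.48%. The largest part of the share of KRT75, 9.16% of its words, is held by a GENCODE long non-coding gene without a symbol (ENSG00000257500), which has no matched value in the table. KRT6A follows with 2.20% and was at 0.09 TPM under DMSO and listed at 0 under CCA-1.1. The 2 highest genes of the set thus had nearly all of their sequence to themselves.

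Some of these genes also overlap in the genome (GRCh38.p14). KRT81 (chromosome 12, 52285913 to 52291534) lies wholly within the span of KRT86 (52274645 to 52309163). KRT8 (52897191 to 52949860) and KRT18 (52948855 to 52952906) overlap by 1006 bases. The antisense RNA KRT7-AS, which overlaps KRT7 (52233243 to 52255853), was at 3.35 TPM under DMSO and 3.11 TPM under CCA-1.1, and shares 12.3% of the 31-base words of KRT7. Counting by strand is not stated, so reads from that shared part cannot be assigned to either gene. KRT80 (52168996 to 52192014), KRT75 (52424070 to 52434371) and KRT79 (52821408 to 52834311) are in the same keratin cluster on chromosome 12, and KRT34 (41377669 to 41383816) and KRT19 (41523617 to 41528308) are on chromosome 17. Neighbours in the chromosome 12 cluster did not share a direction, since KRT7 and KRT86 were lower and KRT75, KRT79 and KRT8 were higher in CCA-1.1.

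Over all 10 keratins, 7 were higher with CCA-1.1, 2 were lower and 1 was at 0 in both libraries. Of all genes, 41% were higher at all, 30.2% were lower and 28.7% were equal. Of the 8 keratins averaging 1 TPM or more, 6 were higher and 2 were lower. Among protein-coding genes of that minimum, 53.8% were higher and 46% were lower. KRT80, at a difference of 0.0014, is among the higher ones in both counts. It is lower after median-ratio scaling, which gives 6 higher and 3 lower of the 10. The median difference was 0.07 over the 10 and 0.12 over the 8 that averaged 1 TPM or more, and it was 0.017 over the protein-coding genes of that minimum. The TPM summed over the 10 keratins was 262.2 with DMSO and 305.3 with CCA-1.1. Of the sum's gain of 43.1 TPM, KRT75 gave 19.4 TPM, KRT79 gave 15.9 TPM and KRT34 gave 11.4 TPM, while KRT7 was lower by 5.89 TPM.

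**Figure D2:**
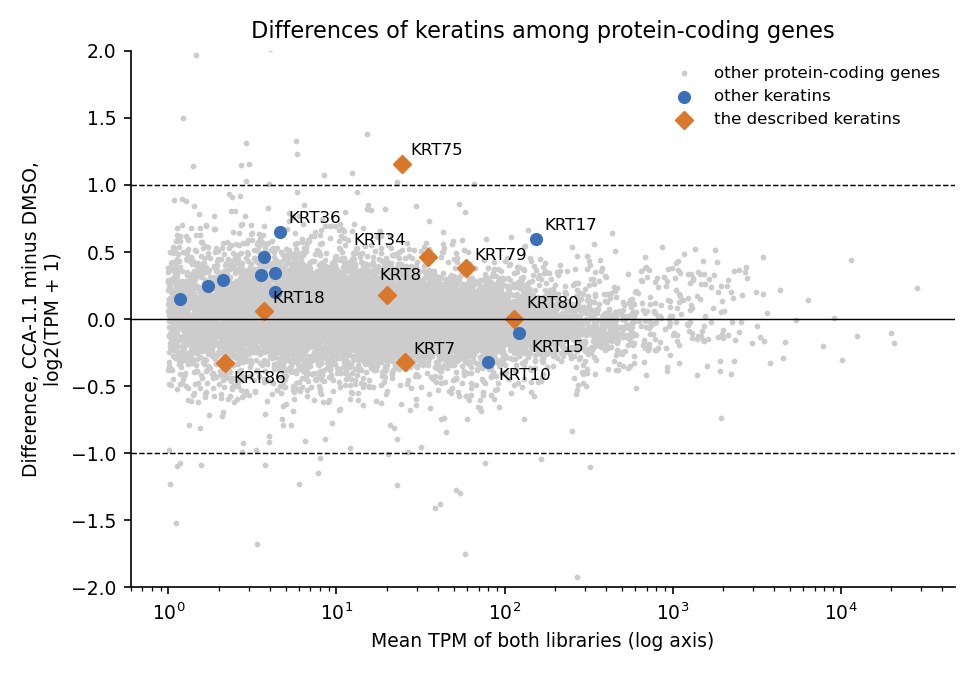
Difference between the CCA-1.1 and the DMSO library in log2(TPM + 1) against mean TPM (log axis) for protein-coding genes averaging 1 TPM or more, with the keratins described here as orange diamonds, other keratins as blue circles and dashed lines at 1 and -1. KRT75 is the single keratin beyond the lines, and 4 genes lie outside the y axis, which ends at 2 and -2.

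The 45 other keratins show what the 10 leave out. Of these, 11 averaged 1 TPM or more, 17 were lower than that and 17 were listed at 0 in both libraries, and none of the 45 was past 2-fold. Of all genes, 0.815% were higher and 0.714% were lower by more than 2-fold. With a pseudocount of 1 TPM, keratins at 0 in both libraries could not pass 2-fold, and those near 0 could hardly do so. The 45 together were at 360.7 TPM under DMSO and 406.6 TPM under CCA-1.1. That is a gain of 45.85 TPM, beside 43.1 TPM for the 10. KRT17, a type I keratin of basal and stressed epithelium, was at 122.2 TPM under DMSO and 185.5 TPM under CCA-1.1, a difference of 0.60. It lay above 0.47, the 99th percentile at its level of 100 TPM or more. KRT15, a type I keratin of basal keratinocytes, was at 125.4 TPM and 116.7 TPM, a difference of -0.10. KRT10, the type I keratin of the upper epidermis, was at 88.75 TPM and 71.09 TPM. Its difference of -0.32 is below -0.27, the 5th percentile of genes with a mean from 20 to 100 TPM. With DMSO, KRT15 and KRT17 were above KRT80, the highest of the 10, and KRT10 was below it. In either library the other 8 of the 11 lay between 1.06 TPM and 5.90 TPM. All 8 were higher with CCA-1.1, from KRT4 with a difference of 0.15 to KRT36 with 0.65. For comparison, 53.8% of protein-coding genes averaging at least 1 TPM were higher. Those from 1 to 5 TPM had a median difference of 0.05, and their 95th percentile was 0.47. Only KRT36 of the 8 was above that percentile. KRT38 was at 3.68 TPM and 4.95 TPM, KRT32 at 2.98 TPM and 4.48 TPM, and KRT33B at 3.03 TPM and 4.05 TPM, all of them type I hair keratins. KRT3 (a difference of 0.20), KRT78 (0.29) and KRT23 (0.24) completed them. Of the 11 keratin pseudogenes in the table, none was above 0.38 TPM in either library. KRT18P11 and KRT8P3 are not among them.

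Among the 10 keratins, type II RNA was 6.90 times type I RNA in DMSO and 5.80 times in CCA-1.1. Over all keratins the order was reversed, since KRT17, KRT15 and KRT10 are type I, and the ratio of type II to type I was 0.614 with DMSO and 0.610 with CCA-1.1. The balance of the 2 chain types over the whole family thus moved little between the libraries, although single genes moved. The 10 keratins held 42.1% of all keratin TPM under DMSO and 42.9% in CCA-1.1.

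Genes that usually accompany keratins in epithelia were mostly near 0. Of 11 epithelial markers, 2 averaged 1 TPM or more. EPCAM, an epithelial adhesion molecule, was at 0.18 TPM under DMSO and 0.16 TPM under CCA-1.1, and CDH1, which encodes E-cadherin, was at 0.16 TPM and 0.06 TPM. The markers past that level were the tight junction proteins CLDN7 (13.57 TPM and 15.30 TPM) and CLDN4 (2.52 TPM and 2.64 TPM), and the summed list was at 16.99 TPM and 18.78 TPM. The list's median difference among genes of at least 1 TPM was 0.11, and none of it was past 2-fold.

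Of the 10 epithelial transcription factors, 5 averaged 1 TPM or more, of which 1 was higher and 4 were lower in CCA-1.1, with a median of -0.32 and none past 2-fold. Among protein-coding genes of that minimum, 46% were lower. KLF5 was the highest of the factors at 41.61 TPM and 39.06 TPM. The ETS factors EHF (9.40 TPM and 6.35 TPM, a difference of -0.50) and ELF3 (2.02 TPM and 0.97 TPM, -0.62) were lowest relative to DMSO, and GRHL2 was listed at 0 in both libraries. GRHL1 was the 1 higher factor, at 1.80 TPM and 2.27 TPM, a difference of 0.22. A link between these factors and the keratins was not tested.

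The desmosome is the junction to which keratin filaments are anchored, and its central linker desmoplakin (DSP) was at 0.01 TPM in both libraries. The desmosomal cadherin DSG2 was at 47.08 TPM under DMSO and 53.25 TPM under CCA-1.1, and the desmosomal protein PERP was at 45.10 TPM and 44.69 TPM. Of the 19 genes of desmosomes and keratin linkers, 7 averaged 1 TPM or more, 3 of them higher and 4 lower, with a median of -0.013 and none past 2-fold. The linkers PLEC (170.2 TPM under DMSO, 143.9 TPM under CCA-1.1) and DST (132.4 TPM, 132.6 TPM), which also bind other filaments, were the highest. PKP4 differed by 0.30 and EPPK1 by -0.28.

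Of the regulators and proteins that accompany hair keratins, most were near 0 and S100A3 was abundant. Of the 10 hair follicle regulators and hair proteins, 3 averaged 1 TPM or more and their median was -0.23, with none past 2-fold. S100A3, a calcium-binding protein of the hair cuticle, was at 772.9 TPM and 659.9 TPM. DLX3 was at 8.94 TPM and 6.51 TPM and LEF1 at 5.87 TPM and 7.32 TPM, while FOXN1 was listed at 0 and HOXC13 was at 0.04 TPM and 0.08 TPM. Of the 12 genes of the cornified envelope, SPRR2D alone averaged 1 TPM or more, at 4.08 TPM and 2.49 TPM (-0.54), and the summed list was at 6.73 TPM and 3.86 TPM.

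The other intermediate filaments set the keratins in proportion. VIM, which encodes vimentin, was at 3217 TPM under DMSO and 3106 TPM under CCA-1.1, which is 5.16 times and 4.36 times the TPM of all keratins together. LMNA, which encodes nuclear lamins, was at 708.9 TPM and 621.0 TPM, and PRPH was at 2.01 TPM and 2.50 TPM. Of the 15 genes of this list, 9 averaged 1 TPM or more, with a median difference of 0.015 and none past 2-fold. GFAP, the astrocyte filament, was at 0.41 TPM under DMSO and 0.57 TPM under CCA-1.1.

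The label glioblastoma was checked with markers. Of 8 astrocyte and glial markers, 4 averaged 1 TPM or more, and these were SLC1A3 (42.61 TPM and 28.60 TPM, -0.56), OLIG2 (5.64 TPM and 7.03 TPM, 0.27), ALDH1L1 (3.42 TPM and 6.05 TPM, 0.67) and SOX2 (1.87 TPM and 1.45 TPM), with a list median of 0.02. S100B was listed at 0 in both libraries, and AQP4 and PTPRZ1 were at most at 0.03 TPM, so several defining glial markers are absent or near 0. All 8 mesenchymal markers were at 15.86 TPM or more in both libraries, 1 of them higher and 7 lower in CCA-1.1, with a median of -0.26. Of protein-coding genes averaging 1 TPM or more, 46% were lower. FN1, which encodes fibronectin, was at 11241 TPM and 9088 TPM, CD44 at 607.4 TPM and 472.6 TPM, and TNC at 162.7 TPM and 96.67 TPM. None of the glial or mesenchymal markers was past 2-fold.

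Among protein-coding genes averaging 10 TPM or more, the nearest to KRT75 in both library values was ANKRD1, an ankyrin repeat protein induced in strained muscle, at 14.77 TPM and 31.04 TPM. It was followed by SERPINI1, which encodes neuroserpin (16.10 TPM and 25.29 TPM), and PDK4, a kinase that restrains pyruvate oxidation (13.73 TPM and 24.96 TPM). Their distances from KRT75 in log2(TPM + 1) were 0.135, 0.436 and 0.449. With 2 libraries this likeness rests on 2 values per gene.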

How the data were processed

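Total RNA of U87 cells treated for 72 h with DMSO or CCA-1.1 was enriched for mRNA and sequenced by the authors on an Illumina instrument, 1 library per condition. Per the labels, reads were checked with FastQC 0.11.9 and MultiQC 1.1. Kallisto was used by the authors for pseudo-alignment to human transcripts (GRCh38.p14). The deposited table gives TPM with 2 decimals; the unit was inferred from column sums of 999999 and 1000000. Depth does not follow from TPM, so counting error cannot be given.

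Of 177816 transcripts, 169966 matched a symbol in a RefSeq table of GRCh38.p14 (169411 with the same version), and TPM was summed per gene. The 7850 others held 0.941% of TPM in DMSO and 0.967% in CCA-1.1. No column was left unused. Differences used a pseudocount of 1 TPM, 2-fold was the fold change criterion of the study, and no test was run, since there are no replicates and no counts. Shared sequence was measured as 31-base words in GENCODE transcripts, whose models differ from RefSeq.

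The keratins and the 8 gene lists were chosen with earlier results of these data known. Text names all 10 keratins, other keratins and keratin pseudogenes with an average of 1 TPM or more, and from each list the genes past 2-fold, the 2 highest and the 2 with the largest difference among those of at least 1 TPM. It also names the 3 genes nearest to KRT75 and transcripts with at least 5% of a gene. Markers near 0, SOX2, DSG2, PERP, KRT6A, HOXC13, FOXN1, GRHL1, GRHL2 and transcripts listed at 0 were named after their values were seen. One item of a list is not reported here and was left out of it. Alternatives were other pseudocounts, minimum levels, median-ratio scaling and curated transcripts only. The calculation was tested on simulated data. Python 3.11.15, numpy 2.4.6, pandas 2.3.3 and matplotlib 3.10.9 were used, and promoters came from RefSeq (GRCh38.p14).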

Additional observations from a re-analysis of the deposited data

How the results depend on the processing

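KRT75 was the single keratin of the 10 past 2-fold under each of the 6 alternatives (pseudocounts of 0.1 and 0.01 TPM, minimum means of 1 and 10 TPM, median-ratio scaling and curated transcripts only). For KRT75 the minimum means and the curated setting could change nothing, since it averaged 24.5 TPM and came from 1 curated transcript. The scaling factor was 1.003, so that setting could change little. A minimum mean alters no gene's own difference, so values of single genes could not move under it. Without replicates, a value counted as moved when it differed by more than 0.196 on the log2 scale. That is the SD over protein-coding genes averaging 10 TPM or more. A count or sum counted as moved when it differed by more than 1.5 times. By these rules 133 of 143 recomputed values did not move, but many of them could not. A pseudocount alters no sum, list medians already had a minimum of 1 TPM, and KRT81 was at 0 throughout. Keratins without predicted transcripts could not change in the curated setting. The share of unmoved values is therefore no measure of stability. No value past 2-fold changed sign, but 7 values near 0 did: KRT80 was at -0.0026 with median-ratio scaling (6 keratins higher and 3 lower) and -0.04 over curated transcripts, the desmosome list median was 0.0022 at a minimum of 10 TPM, and the glial list median was below 0 under 4 alternatives (-0.02 with either pseudocount, and the values below). Among the other 45 keratins, 2 were past 2-fold with a pseudocount of 0.1 TPM (KRT16 and KRT84) and 8 with 0.01 TPM, all below 1 TPM, since a smaller pseudocount widens differences near 0. With a minimum mean of 10 TPM, 6 of the 10 keratins remained, 1 of them lower, and their median was 0.28. The median of the 10 was 0.13 with either smaller pseudocount. KRT19 differed by 0.34 with 0.1 TPM and by 0.50 with 0.01 TPM. With curated transcripts only, KRT7 was at 0 in both libraries and its difference was 0. That setting dropped the predicted transcripts, which carried all of KRT7, and did not assign their reads again. It therefore does not show that KRT7 RNA was absent. The remaining moved values were list medians, an addition made after seeing the data: -0.09 for epithelial transcription factors and -0.56 for glial markers at a minimum of 10 TPM, where each list holds 1 gene (KLF5 and SLC1A3), and -0.23 for glial markers over curated transcripts. No paired analysis was possible because each condition has 1 library, which also means that none could be left out. The unknown depth limits low values, among them KRT19, KRT81 and KRT86.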
